A study of Mus musculus with 8 samples.

Results

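The genes described here encode the subunits of the mitochondrial respiratory chain and of ATP synthase. They were chosen by name: nuclear genes of the Nduf, Sdh, Uqcr, Cyc1, Cox4 to Cox8 and Atp5 families, without pseudogenes and unnamed cDNAs, and the protein genes of mitochondrial DNA. Of 98 names matched, 94 reached 1 TPM, the length-corrected abundance of a transcript relative to its whole library, in 2 or more of the 8 libraries, out of 13376 genes that passed this filter and 45232 names listed. The 94 are 81 nuclear genes and all 13 mitochondrially encoded ones. The 4 names under the filter were Cox4i2, Cox6a2, Cox7b2 and Cox8c, which encode tissue-restricted forms of complex IV subunits.

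The RNA came from CD4+ CD25+ T cells, a population that includes regulatory T cells. Each library held at least 500 sorted cells. There were 4 groups of 2 libraries from C57BL/6 mice: Id2-deficient cells from visceral adipose tissue (KO adipose), wild-type cells from visceral adipose tissue (WT adipose), Id2-deficient cells from spleen (KO spleen) and wild-type cells from spleen (WT spleen). The KO genotype is labelled "Id2 CKO". What drives the deletion and the age of the mice are not stated in the labels or the table. The libraries are numbered 2 and 3 and their columns are headed as experiments 2 and 3. Nothing in the labels says that libraries came from separate mice, so each p-value measures only the spread between libraries, which may be technical.

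Electrons from NADH enter the chain at complex I and those from succinate at complex II, and they pass through ubiquinone, complex III and cytochrome c to oxygen at complex IV. Complexes I, III and IV pump protons, and complex V (ATP synthase) uses the gradient to make ATP. Complex II is wholly nuclear encoded, while the other complexes combine nuclear subunits with subunits translated inside the mitochondrion. Regulatory T cells are known to rely more on oxidative phosphorylation and fatty acid oxidation than effector T cells, and those of visceral fat depend on the lipid-sensing factor PPARγ.

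The sequence of the mitochondrial genome bears on how far its mRNAs can be told apart. It is transcribed as long polycistronic RNAs, and mt-Atp8 and mt-Atp6 stay joined in a single mRNA. In the reference transcripts, the last 43 bases of mt-Atp8 (21.1% of its 204 bases) are also the first 43 of mt-Atp6. The shared stretch on the mitochondrial chromosome is shown with the start codon of mt-Atp6 and the stop codon of mt-Atp8 in capitals.
mt-Atp8 and mt-Atp6 overlap: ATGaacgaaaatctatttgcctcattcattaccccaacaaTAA
The reading frames of mt-Nd4l and mt-Nd4 share 7 bases in the same way. The gene mt-Nd6 lies on the opposite strand from the other 12, and strand-specific counting is not stated. The separate levels of mt-Atp8, mt-Nd4l and mt-Nd6 are therefore uncertain, as are those of genes with near-identical copies elsewhere in the nuclear genome.

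Mitochondrially encoded mRNA was abundant in every library. The 13 mRNAs made up 11.0% and 10.5% of all TPM in KO adipose libraries 2 and 3, against 9.28% and 8.35% in WT adipose libraries. They made up 16.4% and 11.0% in KO spleen, against 18.4% and 12.9% in WT spleen. WT adipose libraries were thus the lowest of the 8 and did not overlap with either spleen group, and the KO values were above WT in adipose tissue and below WT in spleen within each experiment. The group means were 10.8 ± 0.409% for KO adipose, 8.82 ± 0.656% for WT adipose, 13.7 ± 3.84% for KO spleen and 15.6 ± 3.92% for WT spleen (SD, n = 2 each). The mitochondrial ribosomal RNAs mt-Rnr1 and mt-Rnr2 were listed at 0 in all 8 libraries.

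The 81 nuclear mRNAs together gave a smaller and more even share. It was 2.94% and 2.67% in KO adipose, against 2.75% and 2.79% in WT adipose, and 4.48% and 2.91% in KO spleen, against 3.25% and 3.12% in WT spleen. KO spleen library 2 was the highest, and the other 7 libraries lay between 2.67% and 3.25%.

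The ratio of summed mitochondrial to summed nuclear TPM does not depend on the rest of the library. It was 3.76 and 3.92 in KO adipose, against 3.38 and 2.99 in WT adipose. It was 3.66 and 3.78 in KO spleen, against 5.68 and 4.13 in WT spleen. The ratio was above WT in both KO adipose libraries and below WT in both KO spleen libraries, without overlap. In spleen this rested in part on the nuclear sum of KO spleen library 2, 4.48% of TPM against 2.91% to 3.25% in the other spleen libraries. The mitochondrial share of that library, 16.4%, was above the 12.9% of WT spleen library 3. The 2 KO groups were close to each other, with means of 3.84 ± 0.115 in adipose and 3.72 ± 0.0798 in spleen, while the WT groups lay on either side of them, at 3.18 ± 0.27 in adipose and 4.90 ± 1.09 in spleen (SD, n = 2 each). No test was made on these sums, because the members were chosen with earlier results known.

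**Figure D1:**
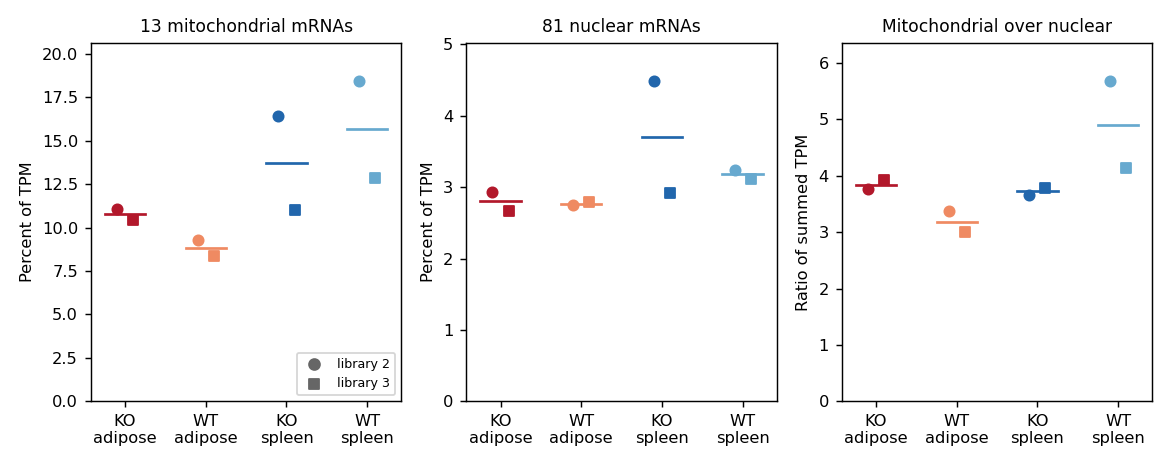
Summed TPM of the 13 mitochondrial mRNAs and of the 81 nuclear mRNAs as percent of all TPM, and their ratio, in each library. Circles are library 2, squares library 3, and lines the mean of the 2. The ratio separates KO from WT in opposite directions in adipose tissue and spleen. In spleen the separation rests in part on the high nuclear sum of KO spleen library 2.

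The order of the mitochondrial mRNAs was stable. mt-Co3, a core subunit of complex IV, and mt-Atp6, the proton channel subunit of ATP synthase, held ranks 1 and 2 in every library, with 18396 to 49431 TPM for mt-Co3 and 18023 to 41295 TPM for mt-Atp6. mt-Co1, the catalytic subunit of complex IV, ranked between 3 and 5, with a median of 14441 TPM. mt-Co2, which receives electrons from cytochrome c, ranked between 4 and 7 at a median of 11382 TPM, and mt-Cytb, the cytochrome b of complex III, between 3 and 7 at 8172 TPM. The ranges of these 3 overlapped across libraries. mt-Nd1 and mt-Atp8 held ranks 5 to 7 at medians of 8266 and 7822 TPM. mt-Nd4 and mt-Nd2, which form proton-pumping parts of complex I, held ranks 8 and 9 at medians of 3120 and 2740 TPM. The last 4 places went to mt-Nd3, mt-Nd5, mt-Nd6 and mt-Nd4l, at medians of 1252, 1217, 1203 and 1055 TPM, whose ranges overlapped.

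**Figure D2:**
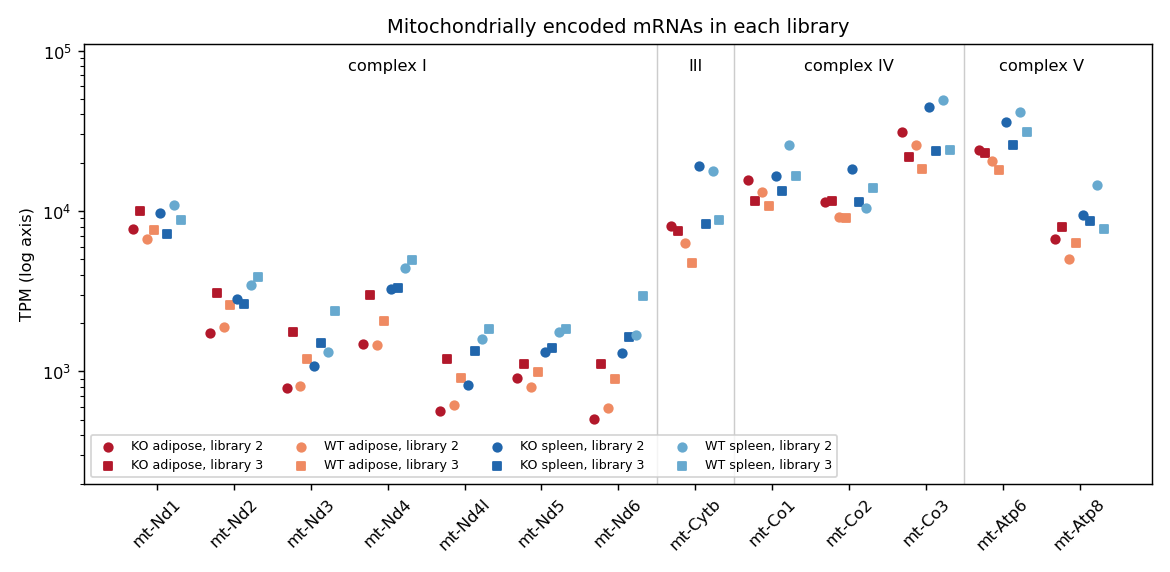
TPM of each of the 13 mitochondrially encoded mRNAs (log axis) in each library, grouped by complex. Colours are the 4 groups, circles library 2 and squares library 3. Within each library the complex I mRNAs other than mt-Nd1 lie below those of complexes III to V, and WT adipose libraries lie low for most mRNAs.

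The shares of complexes I and IV among mitochondrial mRNAs followed the experiment more than the group. The 7 complex I mRNAs made up 12.4% to 13.9% of mitochondrial TPM in the 4 libraries of experiment 2, with 12.5% in KO adipose, 13.9% in WT adipose, 12.4% in KO spleen and 13.7% in WT spleen. They made up 20.3%, 19.4%, 17.3% and 20.7% in the same groups in experiment 3. All 4 libraries of experiment 3 were above all 4 of experiment 2. By gene, mt-Nd3, mt-Nd4, mt-Nd4l, mt-Nd5 and mt-Nd6 were lower in experiment 2 than in experiment 3 in all 4 groups (5 of 13, where 24.2% of all genes tested did so). mt-Cytb, mt-Co1, mt-Co3 and mt-Atp6 were higher in experiment 2 in all 4 groups (4 of 13, against 6.54% of all genes). Medians over the mitochondrial mRNAs were therefore also taken within each experiment, while fold changes of single mRNAs come from the fit over both. Complex IV mRNAs made up 46.4% to 52.6% of mitochondrial TPM in experiment 2 and 42.4% to 45.7% in experiment 3. Complex V mRNAs made up 27.6% to 31.2% and did not split by experiment, with 30.3% in WT spleen library 2 and 29.2% in WT adipose library 3. The share of mt-Cytb was 5.69% to 11.6%, and it was higher in spleen than in adipose tissue within each genotype and experiment.

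Nuclear subunits were expressed from all 5 complexes, with a level in TPM that varied widely between subunits. The highest in complex I were Ndufa1, a small membrane subunit, at a mean of 1333 TPM over the 8 libraries, and Ndufb9 at 759 TPM. The lowest was Ndufb2 at 32.3 TPM. In complex II the highest were Sdhd, a membrane anchor, at 378 TPM and Sdhb, the iron-sulfur subunit, at 305 TPM. In complex III they were Uqcr11 and Uqcr10, small accessory subunits, at 886 and 714 TPM. In complex IV they were Cox6b1 at 1432 TPM and Ndufa4, a subunit once assigned to complex I, at 1284 TPM. In complex V they were Atp5l, a membrane subunit, at 1286 TPM and Atp5b, the catalytic beta subunit, at 609 TPM. The median subunit had 268 TPM in complex I, 223 in complex II, 294 in complex III, 387 in complex IV and 375 in complex V. Among nuclear complexes, complex I took 34.8% to 38.6% of nuclear TPM over the 8 libraries, complex II 2.31% to 3.68%, complex III 10.7% to 13.1%, complex IV 24.7% to 29.4% and complex V 18.8% to 22.5%. The nuclear shares also went with the experiment in part: complex IV took 24.7% to 27.1% in the 4 libraries of experiment 2 and 27.6% to 29.4% in those of experiment 3, and complex I was higher in experiment 2 than in experiment 3 in all 4 groups. The 3 associated genes took the rest. They were Cox7a2l, a supercomplex assembly factor, at 323 TPM, and Atp5s and Atp5sl, related to coupling and assembly factors, at 20.8 and 15.5 TPM.

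The promoters of a few subunits are shown because the nuclear genes are known to share binding motifs of NRF1, GABP and YY1. They are the RefSeq windows of GRCm38.p6, 250 bases before to 50 after the start. RefSeq windows were matched for 68 of the 81 nuclear members. The NRF1 core, GCGCA and GCGC with any 1 base between them, was found on either strand in 17 of the 68 (25.0%), against 5.19% of all genes with a window. The YY1 core AAGATGGC was found in 11 (16.2%), against 3.19%, and the GABP core CCGGAAGT in 5 (7.35%), against 4.31%. A match is a description and not evidence of binding. The 3 printed promoters carry the motifs in capitals. Sdha, the catalytic subunit of complex II, has 3 NRF1 cores (chr13:74350191-74350490, minus strand). Ndufs6, a complex I subunit, has 1 NRF1 core on the opposite strand and a YY1 core on the printed strand (chr13:73328433-73328732, minus strand). Atp5h, the stalk subunit d of ATP synthase, has 1 NRF1 core on the printed strand and a GABP core on the opposite strand (chr11:115419870-115420169, minus strand).
Sdha promoter: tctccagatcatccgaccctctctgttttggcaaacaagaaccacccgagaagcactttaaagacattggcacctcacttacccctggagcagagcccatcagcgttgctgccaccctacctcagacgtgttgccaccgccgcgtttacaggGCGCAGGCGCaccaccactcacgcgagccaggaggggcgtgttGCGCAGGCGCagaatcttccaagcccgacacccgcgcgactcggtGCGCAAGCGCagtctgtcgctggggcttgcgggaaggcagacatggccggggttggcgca
Ndufs6 promoter: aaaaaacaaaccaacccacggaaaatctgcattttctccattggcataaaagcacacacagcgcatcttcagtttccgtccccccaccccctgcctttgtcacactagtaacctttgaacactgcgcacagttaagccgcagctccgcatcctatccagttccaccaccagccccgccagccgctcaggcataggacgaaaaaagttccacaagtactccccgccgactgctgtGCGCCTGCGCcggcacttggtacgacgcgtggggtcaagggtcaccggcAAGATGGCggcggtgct
Atp5h promoter: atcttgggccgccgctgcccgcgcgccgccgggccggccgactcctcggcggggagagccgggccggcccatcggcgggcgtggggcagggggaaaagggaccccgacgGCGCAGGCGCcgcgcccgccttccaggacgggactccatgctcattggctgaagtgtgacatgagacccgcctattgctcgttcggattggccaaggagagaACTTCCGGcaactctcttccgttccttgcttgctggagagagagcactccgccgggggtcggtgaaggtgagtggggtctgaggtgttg
For KO over WT adipose the median log2 fold change was 0.04 in the 17 members with the NRF1 core and 0.03 in the 51 without it. For WT adipose over WT spleen it was -0.08 with the NRF1 core and -0.25 without it, while it was -0.32 with the YY1 core and -0.20 without it. These medians are descriptions and were not tested.

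The deleted gene was checked first. Id2, an inhibitor of basic helix-loop-helix factors, had 1499 and 1298 TPM in KO adipose, against 2249 and 3679 TPM in WT adipose, and 72.1 and 265 TPM in KO spleen, against 274 and 346 TPM in WT spleen. It was lower in every KO library than in the WT libraries of the same tissue but was not lost. The exon targeted is not given, so a level over the whole gene is a limited check. Other series-wide values bear on all that follows. Foxp3, the defining factor of regulatory T cells, had 7.40 TPM in KO adipose library 2 and 8.27 TPM in KO spleen library 2, against 93.5 to 266 TPM in the other 6 libraries, so both KO libraries of experiment 2 stand apart. KO adipose library 3 held 11479 TPM of 10 macrophage markers, against 9.66 to 616 TPM in the other 7 libraries. Its 7 adipocyte markers summed to 14368 TPM, against 2117 TPM in WT adipose library 3 and 1.03 to 54.2 TPM in the other 6. Fibroblast and mesothelium markers summed to 730 TPM in KO adipose library 2 (7 of 9 above 0) and 3591 TPM in KO adipose library 3 (9 of 9), against 0.328 and 4.80 TPM in WT adipose and 0.12 to 0.454 TPM in spleen. RNA of these cells was thus seen in both KO adipose libraries, and its part in the KO over WT adipose values was not tested. Erythroid markers summed to 24598 and 41282 TPM in KO adipose, against 37.0 and 2668 TPM in WT adipose. They summed to 785 and 63196 TPM in KO spleen, against 10738 and 26950 TPM in WT spleen. T cell markers summed to 3774 TPM in KO adipose library 3, against 7340 to 11689 TPM in the other 7 libraries. The part of these differences in the values of the members was not tested. In bulk libraries fewer cells of a type and less RNA per cell cannot be told apart. Depth is unknown, since TPM keeps none.

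Each comparison was tested gene by gene with limma on log2(TPM + 1), adjusted over all 13376 genes. Fold changes below are on that scale, with the standard error (SE) of the fit. No member passed an adjusted p of 0.05 in any of the 5 contrasts. With 2 libraries a group, a p above the threshold does not show that groups were alike. Quantile normalization, tried as another scaling, moved the median over all genes to -0.09 for KO over WT adipose, 0.00 for KO over WT spleen, -0.11 for KO adipose over KO spleen and -0.00 for WT adipose over WT spleen, and the deposited scale had -0.27, -0.12, 0.16 and 0.32 for them. Each set of members is therefore given beside the all-gene median.

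In adipose tissue, KO against WT, 0 of 94 members passed, where 0.284% of all genes did, and 0 had an unadjusted p under 0.05, where 6.97% of all genes did. The nuclear median log2 fold change was 0.02, with 42 of 81 positive, or 60 after quantile normalization and 64 after rescaling without mitochondrial and hemoglobin genes. The mitochondrial median was 0.27 (13 of 13 positive), while the median over all genes tested was -0.27. After quantile normalization the mitochondrial direction did not hold, with 7 of 13 positive, 5 negative and a median of 0.06. That method gives each rank the same value in every library. A gene of stable rank then shows no change, as mt-Atp6 did at 0, so it is a limited check for these mRNAs. After rescaling without mitochondrial and hemoglobin genes 13 of 13 were positive, with a median of 0.38. Both KO libraries lay above both WT libraries for 5 of 13 mitochondrial and 12 of 81 nuclear members, where 7.66% of all genes did, and below them for 8 nuclear members, where 27.5% of all genes did. The 5 were mt-Nd1, mt-Cytb, mt-Co2, mt-Atp6 and mt-Atp8. mt-Cytb had 8010 and 7465 TPM in KO adipose, against 6310 and 4754 TPM in WT adipose, a log2 fold change of 0.50 ± 0.56 (SE; limma adjusted p = 0.835). By experiment, the mitochondrial median was 0.21 in experiment 2, with 9 of 13 positive, and 0.35 in experiment 3, with 13 of 13 positive. The nuclear median was 0.08 in experiment 2 and -0.10 in experiment 3. Without both KO libraries of experiment 2 the mitochondrial median was 0.47, with 12 of 13 positive, and the nuclear median -0.08. Without KO adipose library 3 the mitochondrial median was 0.12, with 8 of 13 positive.

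Among nuclear subunits in that comparison the most negative fold changes belonged to Cox8b, Ndufs1 and Atp5sl. Ndufs1, the largest core subunit of complex I, had 24.9 and 37.6 TPM in KO adipose, against 69.9 and 53.3 TPM in WT adipose. Both KO libraries were lower, with a log2 fold change of -0.97 ± 0.55 (SE; limma adjusted p = 0.751). Ndufs1 had 14.6 and 47.1 TPM in KO spleen, against 26.9 and 37.1 TPM in WT spleen, where the groups overlapped. The difference between these 2 KO effects was -0.72 ± 0.78 (SE; limma adjusted p = 1).

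In spleen, KO against WT, 0 of 94 members passed, as did 0% of all genes, and 0 members had an unadjusted p under 0.05, where 0.478% of all genes did. The nuclear median log2 fold change was 0.20, with 68 of 81 positive, and the median over all genes was -0.12. This rested on 1 library: without KO spleen library 2 the nuclear median was -0.10, and without KO spleen library 3 it was 0.47. The median was 0.45 within experiment 2 and -0.10 within experiment 3. Both KO libraries lay above both WT libraries for 4 of 81 nuclear members, where 5.93% of all genes did. Mitochondrial mRNAs were lower in KO spleen for 11 of 13, with a median of -0.41, and 11 of 13 were also negative after quantile normalization. Both KO libraries lay below both WT libraries for 6 of 13 (mt-Nd2, mt-Nd4, mt-Nd4l, mt-Nd5, mt-Nd6 and mt-Co1), where 13.9% of all genes did. For mt-Co1 this was nearly a tie, with 16494.8 TPM in KO spleen library 2 against 16495.3 TPM in WT spleen library 3. The mitochondrial median was -0.29 in experiment 2 and -0.31 in experiment 3. Without both KO libraries of experiment 2 all 13 were negative, with a median of -0.45, but without WT spleen library 2 the median was -0.16, with 9 of 13 negative. mt-Nd4l had 821 and 1334 TPM in KO spleen, against 1585 and 1827 TPM in WT spleen, a log2 fold change of -0.70 ± 0.45 (SE; limma adjusted p = 1).

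KO spleen library 2 was the highest of the 8 libraries for 59 of 81 nuclear members (72.8%), where it was the highest for 8.41% of all genes tested. It was the lowest for 31.5% of all genes and for 6.17% of nuclear members. In it 10632 genes reached 1 TPM, against 10609 in KO adipose library 2 and 11188 to 13511 in the others. The members were not compared with genes of like abundance. KO spleen library 2 was above KO spleen library 3 by a median log2 difference of 0.63 for nuclear members, while over all genes it was below by a median of -0.47. Ndufa12, an accessory subunit of complex I, had 475 and 190 TPM in KO spleen, against 230 and 205 TPM in WT spleen. Uqcr10 of complex III had 1392 and 696 TPM in KO spleen, against 655 and 768 TPM in WT spleen. Ndufb2 had 61.6 and 28.8 TPM in KO spleen, against 31.0 and 28.8 TPM in WT spleen. These had the 3 largest positive fold changes, 0.47, 0.47 and 0.48, and for Ndufa12 and Ndufb2 library 3 was no higher than the WT libraries. The same library had the low Foxp3 level given above. Whether that plays a part in the nuclear levels was not tested.

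The high values of KO spleen library 2 lay mostly in members with short coding sequences. Across the 81 nuclear members the difference of library 2 minus library 3 had a Spearman correlation of -0.46 with the longest annotated coding length, as a description over genes that share the same 2 libraries. The same correlation was 0.44 in KO adipose, 0.46 in WT adipose and 0.16 in WT spleen. Nuclear members with a coding length under 1000 bases, a split chosen after their values were seen, had a median difference of 0.67 (64 of 70 higher in library 2). The 11 members with longer coding sequences had a median of -0.12 (4 of 11 higher). Over all genes tested the medians were -0.02 for short and -0.66 for long coding sequences.

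In WT cells, adipose tissue against spleen, 0 of 94 members passed, where 0.164% of all genes did, and 5 had an unadjusted p under 0.05, where 13% of all genes did. All 13 mitochondrial mRNAs were lower in WT adipose, with a median log2 fold change of -0.89, while the median over all genes was 0.32. Both WT adipose libraries lay below both WT spleen libraries for 12 of the 13, where 15.1% of all genes did. The exception was mt-Co3, with 25734 and 18396 TPM in WT adipose, against 49431 and 24133 TPM in WT spleen. The direction depended on scaling for mt-Nd1, mt-Co2 and mt-Co3, since after quantile normalization 10 of 13 were negative, with a median of -0.51. After rescaling without mitochondrial and hemoglobin genes all 13 were negative, with a median of -1.06. On the deposited scale 13 of 13 were negative in both experiments, with medians of -1.01 and -0.78.

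Of the 5 members with an unadjusted p under 0.05, 4 were mitochondrial complex I subunits. mt-Nd6 had 593 and 898 TPM in WT adipose, against 1696 and 2943 TPM in WT spleen, a log2 fold change of -1.61 ± 0.48 (SE; limma adjusted p = 0.26). mt-Nd4 had 1461 and 2063 TPM in WT adipose, against 4437 and 4986 TPM in WT spleen, a log2 fold change of -1.44 ± 0.43. The groups did not overlap in either gene, and neither passed. mt-Nd4l had a log2 fold change of -1.18 ± 0.45 and mt-Nd5, the largest mitochondrial subunit, one of -1.02 ± 0.31. The adjusted p-values of the 3 were 0.26, 0.34 and 0.271 by limma. As given above, the separate levels of mt-Nd6 and mt-Nd4l are uncertain, in this and every other comparison.

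The fifth was Sdha, the flavoprotein of complex II and so also an enzyme of the citric acid cycle. It had 233 and 172 TPM in WT adipose, against 94.4 and 110 TPM in WT spleen, a log2 fold change of 0.96 ± 0.38 (SE; limma adjusted p = 0.347). It had 177 and 151 TPM in KO adipose, against 67.2 and 127 TPM in KO spleen, a log2 fold change of 0.81 ± 0.38 (SE; limma adjusted p = 0.422). All 4 adipose libraries were above all 4 spleen libraries. Its partners Sdhb, Sdhc and Sdhd had smaller log2 fold changes of -0.10, 0.33 and 0.04 between WT adipose and WT spleen. Sdha has a coding length of 1992 bases, against 846, 507 and 477 for these partners. Over all genes tested the median was 0.50 for coding sequences of at least 1000 bases and 0.10 for shorter ones. The part of coding length in the difference between Sdha and its partners was not tested.

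Most nuclear members were lower in WT adipose. The nuclear median was -0.20, with 57 of 81 negative, against the all-gene median of 0.32. After quantile normalization 69 were negative, and after rescaling 65. Both WT adipose libraries lay below both WT spleen libraries for 44 members, where 15.1% of all genes did, and above them for 13, where 37.8% did. By complex, 28 of 35 in complex I, 1 of 4 in complex II, 6 of 9 in complex III, 11 of 15 in complex IV and 10 of 15 in complex V were negative. Cox7b, a small complex IV subunit, had 240 and 279 TPM in WT adipose, against 368 and 419 TPM in WT spleen, a log2 fold change of -0.60 ± 0.32. Uqcrh, the hinge subunit of complex III, had 372 and 365 TPM in WT adipose, against 635 and 519 TPM in WT spleen, a log2 fold change of -0.64 ± 0.36 (SE). Neither passed, with limma adjusted p-values of 0.462 and 0.482.

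Direction again went with coding length. All 11 nuclear members with a coding length of at least 1000 bases were higher in WT adipose, with a median of 0.31, as deposited, but 6 of 11 after quantile normalization and 9 of 11 after rescaling without mitochondrial and hemoglobin genes. Both WT adipose libraries were above both WT spleen libraries for 9 of them. They include the catalytic Sdha and Atp5b, the alpha subunit Atp5a1, the core subunits Ndufs1 and Ndufv1 and the core proteins Uqcrc1 and Uqcrc2. Of the 70 shorter members, 57 were lower, with a median of -0.26, and 64 were lower after quantile normalization. The medians over all genes tested differed in the same direction, at 0.50 for long and 0.10 for short coding sequences. Both sets of members were thus below all genes of like length by the median.

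**Figure D3:**
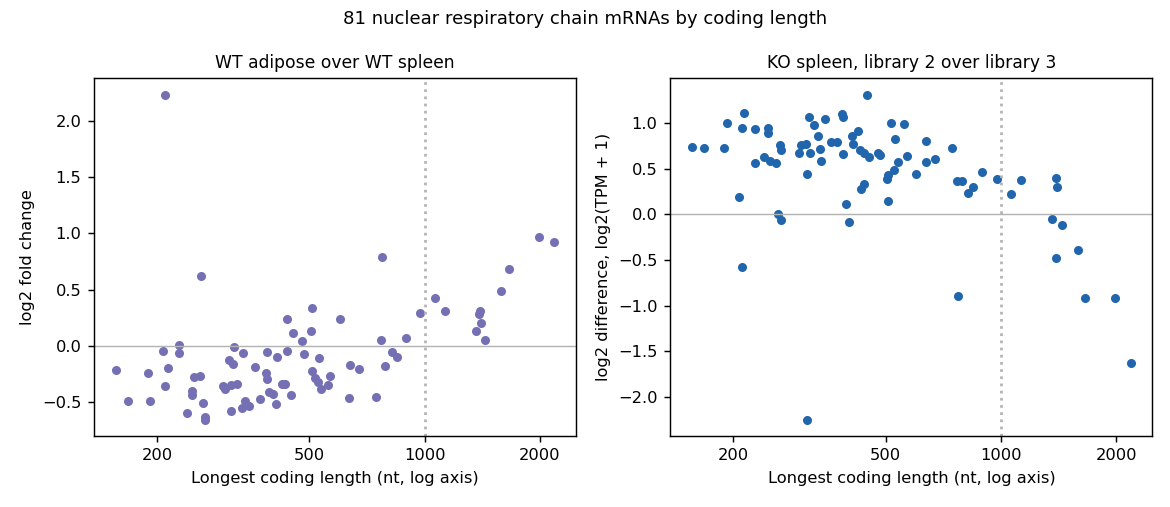
Each point is 1 of the 81 nuclear members against its longest coding length (log axis, dotted line at 1000 bases). The left panel shows the log2 fold change of WT adipose over WT spleen, where all 11 long members are above 0, and the right panel the log2 difference of KO spleen library 2 over library 3.

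In KO cells, adipose tissue against spleen, 0 of 94 members passed, where 1.08% of all genes did, and 2 had an unadjusted p under 0.05, where 12.9% of all genes did. Atp5g1, which encodes the ring subunit c of ATP synthase, had 97.0 and 89.2 TPM in KO adipose, against 241 and 133 TPM in KO spleen, a log2 fold change of -0.94 ± 0.35 (SE; limma adjusted p = 0.317). Cox7b had 278 and 276 TPM in KO adipose, against 595 and 383 TPM in KO spleen, a log2 fold change of -0.78 ± 0.32 (SE; limma adjusted p = 0.354). In each gene the KO adipose libraries agreed closely and the KO spleen libraries did not. Without KO spleen library 2 the fold changes were -0.51 for Atp5g1 and -0.47 for Cox7b.

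The KO nuclear median was -0.37, with 66 of 81 negative, against an all-gene median of 0.16, and it was -0.03 without KO spleen library 2. Both KO adipose libraries lay below both KO spleen libraries for 31 nuclear members, where 14.6% of all genes did, and above them for 3, where 22.1% did. The mitochondrial median was -0.33, with 12 of 13 negative and 6 without overlap (10 of 13 negative after quantile normalization and 12 after rescaling). It was -0.54 in experiment 2 and -0.14 in experiment 3, where 9 of 13 were negative. Without both KO libraries of experiment 2 the nuclear median was -0.15, with 62 of 81 negative. The mitochondrial median was -0.59 without KO adipose library 3 and -0.19 without KO spleen library 2. mt-Nd6 had 505 and 1112 TPM in KO adipose, against 1294 and 1641 TPM in KO spleen, a log2 fold change of -0.96 ± 0.48 (SE; limma adjusted p = 0.466).

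**Figure D4:**
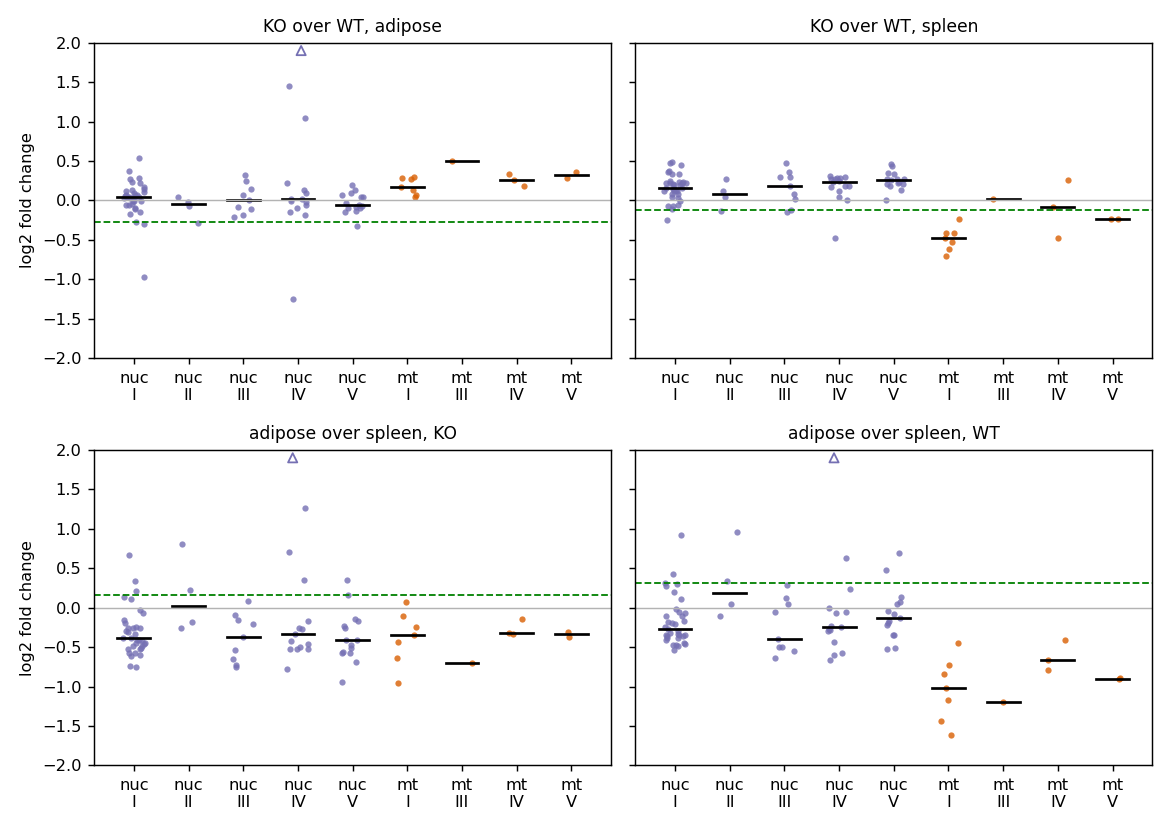
Log2 fold change of each member by genome (nuc, nuclear; mt, mitochondrial) and complex in 4 comparisons. Bars are medians of each set, dashed lines the median over all 13376 genes, and open triangles at the upper edge values beyond it (Ndufa4l2 and Cox8b). Mitochondrial medians lie above the dashed line for KO over WT in adipose tissue and below it in the comparisons of adipose tissue with spleen.

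The difference between the KO effect in adipose tissue and that in spleen was tested as an interaction. It was positive for all 13 mitochondrial mRNAs, with a median of 0.58, but for 9 of 13 after quantile normalization. After rescaling it was positive for 13 of 13, with a median of 0.69. It was negative for 64 of 81 nuclear members, with a median of -0.19, but for 45 after quantile normalization and 52 after rescaling, while over all genes the median was -0.17. Leaving out both KO libraries of experiment 2, it was positive for all 13 mitochondrial mRNAs, with a median of 0.93, and the nuclear median was 0.03. None of 94 passed in limma, where 0.0299% of all genes did, and 0 had an unadjusted p under 0.05, where 3.06% of all genes did. The largest mitochondrial values belonged to mt-Nd4l, at 0.83 ± 0.64 (SE), and mt-Nd4, at 0.80 ± 0.61, each with a limma adjusted p of 1.

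Subunits with alternative forms were expressed almost wholly as the common form. Cox4i1, the regulatory subunit that binds ATP, had 608 to 947 TPM over the 8 libraries, while its hypoxia-linked form Cox4i2 had 21.6 TPM in KO adipose library 3 and at most 0.789 TPM elsewhere. Cox6a1 had 673 to 1409 TPM, while the heart and muscle form Cox6a2 reached 3.12 TPM in KO adipose library 3. Cox8a had 1072 to 1546 TPM, while the germline form Cox8c was listed at 0 in all 8. The testis form Cox7b2 had 3.37 TPM in KO adipose library 3 and was listed at 0 in the other 7. Cox5a and Cox5b, which are separate subunits, had 680 to 1121 and 284 to 588 TPM. The genes Atp5g1, Atp5g2 and Atp5g3, which encode the same mature subunit c, had 88.0 to 241, 150 to 268 and 314 to 708 TPM, so that Atp5g3 was the highest of them in every library.

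Several restricted forms were seen in adipose libraries of experiment 3. Ndufa4l2, a hypoxia-induced relative of Ndufa4, had 0 and 43.3 TPM in KO adipose, against 0 and 1.38 TPM in WT adipose, and was listed at 0 in all 4 spleen libraries. The signal was that of KO adipose library 3, and the log2 fold change of KO over WT was 2.11 ± 1.46 (SE; limma adjusted p = 0.776). Without KO adipose library 2 it was 4.84 with a limma adjusted p of 0.0131, where KO adipose is 1 library assumed to vary like the other groups, and without KO adipose library 3 it was -0.62. The fitted values of a gene at 0 in a group depend on the pseudocount. Cox8b, the muscle and brown fat form of Cox8a, had 0 and 2.94 TPM in KO adipose, against 0 and 21.3 TPM in WT adipose. It had 0 and 0.49 TPM in KO spleen, against a listed value of 0 in each WT spleen library. Here the signal was that of WT adipose library 3.

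Cox7a1, the muscle and brown fat form of Cox7a2, had 6.05 and 16.5 TPM in KO adipose, against 1.63 and 5.34 TPM in WT adipose. Both KO values were higher, with a log2 fold change of 1.45 ± 0.67 (SE; limma adjusted p = 0.74), and KO adipose library 3 was the highest. It had 3.53 and 3.74 TPM in KO spleen, against 6.20 and 4.77 TPM in WT spleen. Cox6b2, a testis form, had 5.61 and 4.94 TPM in KO adipose, against 0.763 and 4.21 TPM in WT adipose, a log2 fold change of 1.05 ± 0.90 (SE; limma adjusted p = 0.8). It was not restricted to adipose tissue, with 1.25 and 9.72 TPM in KO spleen, against 1.88 and 6.13 TPM in WT spleen.

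**Figure D5:**
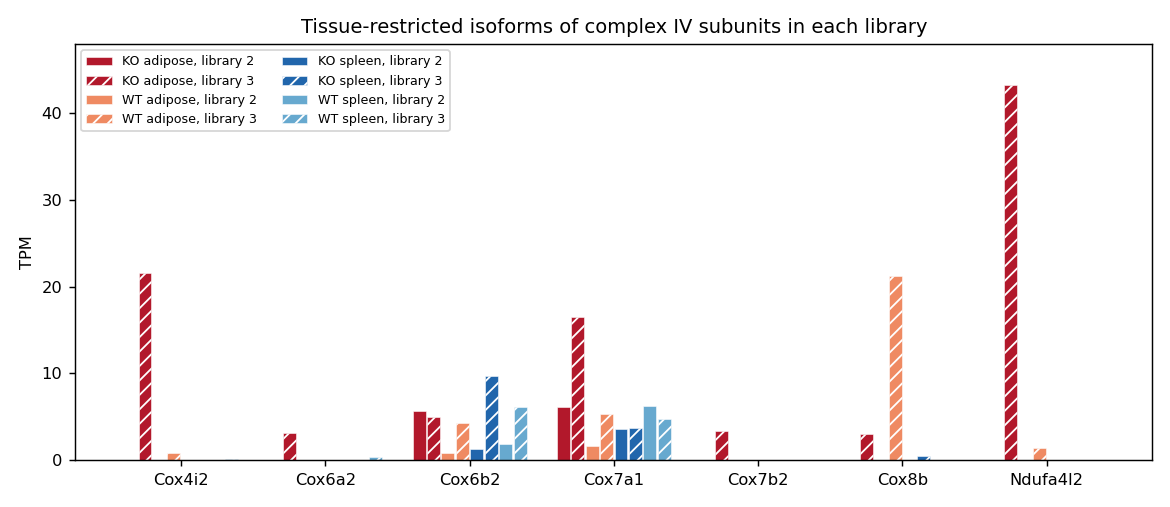
TPM of 7 tissue-restricted isoforms of complex IV subunits in each library. Bars start at 0, colours are the 4 groups, and hatched bars are library 3. Cox4i2 and Ndufa4l2 are high in KO adipose library 3 alone, and Cox8b in WT adipose library 3.

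KO adipose library 3 and WT adipose library 3 had the highest summed adipocyte markers. In KO adipose library 3 all 10 macrophage markers, all 9 fibroblast and mesothelium markers (3591 TPM) and 6 of 7 adipocyte markers were above 0. In WT adipose library 3 all 7 adipocyte markers were above 0, while the fibroblast and mesothelium markers summed to 4.80 TPM, with Col3a1, Pdgfra, Upk3b and Msln at 0. The 4 muscle markers summed to at most 3.44 TPM in any library. The brown fat marker Ucp1 had 0.142 TPM in WT adipose library 3 and was listed at 0 elsewhere. The part of these cells in the isoform levels was not tested.

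Other genes of the pathway were taken from 6 lists. None of their members passed in any of the 5 contrasts by limma. Of the citric acid cycle enzymes, 16 of 18 were positive in WT adipose over WT spleen, or 11 after quantile normalization and 14 after rescaling, with a median of 0.58 beside 0.32 for all genes. In KO adipose over KO spleen 15 of 18 were positive, or 12 and 14 under these scalings, with a median of 0.58 beside 0.16. Over all genes with a coding length of at least 1000 bases the medians were 0.50 in WT and 0.26 in KO cells. For shorter ones they were 0.10 and 0.02. None of the 6 lists was compared by coding length, so its part in their values was not tested. In WT cells 6 of the 18 had an unadjusted p under 0.05, where 13% of all genes did. Ogdh, a subunit of 2-oxoglutarate dehydrogenase, had 94.6 and 85.9 TPM in WT adipose, against 16.4 and 39.3 TPM in WT spleen. Its log2 fold change was 1.78 ± 0.54 (SE; limma adjusted p = 0.271). Idh3a, which makes NADH for complex I, had 173 and 117 TPM in WT adipose, against 61.8 and 75.2 TPM in WT spleen. Citrate synthase (Cs) had 237 and 170 TPM in WT adipose, against 98.2 and 110 TPM in WT spleen. Dlat and Dlst, subunits of the pyruvate and 2-oxoglutarate dehydrogenase complexes, had log2 fold changes of 1.28 and 1.06. Idh2 had 53.4 and 113 TPM in KO adipose, against 22.3 and 37.8 TPM in KO spleen, a log2 fold change of 1.39 ± 0.52 (SE; limma adjusted p = 0.315).

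Of the assembly factors, 44 of 46 were tested. In WT adipose over WT spleen 25 were positive and 19 negative, but 11 and 33 after quantile normalization, and 19 and 25 after rescaling. Cox15, which makes heme a for complex IV, had 28.1 and 36.2 TPM in WT adipose, against 5.04 and 10.5 TPM in WT spleen, a log2 fold change of 1.98 ± 0.51 (SE; limma adjusted p = 0.202). Cox10, which acts before it in the same route, had 38.8 and 30.1 TPM in WT adipose, against 12.98 and 16.7 TPM in WT spleen. The complex I assembly factor Ecsit had a log2 fold change of 1.25. Sdhaf1, which assembles the iron-sulfur centres of Sdhb, went the other way, with 39.7 and 29.3 TPM in WT adipose, against 76.6 and 83.6 TPM in WT spleen (log2 fold change -1.21 ± 0.41; SE). It had 54.4 and 25.6 TPM in KO adipose, against 72.8 and 74.4 TPM in KO spleen, so that all 4 adipose libraries were below all 4 spleen libraries. Coa5, a complex IV assembly factor, had 19.8 and 32.2 TPM in KO adipose, against 108 and 54.1 TPM in WT adipose, a log2 fold change of -1.56 ± 0.48 (SE; limma adjusted p = 0.469).

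Of 27 genes for mitochondrial transcription and replication, 22 were tested. In KO adipose over KO spleen 5 were positive and 17 negative, with a median of -0.18. In WT adipose over WT spleen 14 were positive and 8 negative, with a median of 0.17, but 7 and 15 after quantile normalization. Tfam, which packages mitochondrial DNA and starts its transcription, had 25.5 and 15.1 TPM in KO adipose, against 40.7 and 33.8 TPM in KO spleen, a log2 fold change of -0.88 ± 0.49 (SE; limma adjusted p = 0.509). It had 30.8 and 12.8 TPM in WT adipose, against 36.8 and 32.5 TPM in WT spleen, so that all 4 adipose libraries were below all 4 spleen libraries. Slirp, which stabilises mitochondrial mRNAs, had 31.3 and 25.7 TPM in WT adipose, against 70.1 and 49.5 TPM in WT spleen, a log2 fold change of -1.03 ± 0.43. The elongation factor Tefm had 8.60 and 13.8 TPM in KO adipose, against 40.2 and 24.7 TPM in KO spleen, a log2 fold change of -1.45 ± 0.51 (SE; limma adjusted p = 0.293). Tfam was named after its values were seen.

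Among nuclear regulators, 11 of 14 were tested. Pparg had 107 and 112 TPM in KO adipose, against 0.545 and 8.77 TPM in KO spleen, and 25.6 and 154 TPM in WT adipose, against 4.26 and 2.70 TPM in WT spleen. All adipose libraries were higher, and the log2 fold changes were 4.83 ± 0.99 in KO and 3.87 ± 0.99 in WT cells (SE; limma adjusted p = 0.0763 and 0.202). PPARγ is also a factor of adipocytes, whose markers are given above. Among electron carriers and ATP export, Slc25a4, an ADP/ATP carrier, had 253 and 177 TPM in WT adipose, against 137 and 117 TPM in WT spleen, a log2 fold change of 0.74 ± 0.31 (SE; limma adjusted p = 0.367). Coq9, needed for ubiquinone synthesis, had 61.8 and 40.6 TPM in KO adipose, against 13.04 and 31.4 TPM in KO spleen, a log2 fold change of 1.26 ± 0.49.

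In the hypoxia and reactive oxygen list, Hif1a, the oxygen-regulated factor that lowers respiration, had 39.2 and 58.8 TPM in KO adipose, against 153 and 122 TPM in WT adipose. Its log2 fold change was -1.49 ± 0.41 (SE; limma adjusted p = 0.358). It had 40.0 and 73.5 TPM in KO spleen, against 48.1 and 65.2 TPM in WT spleen. WT adipose was the group that stood apart, above all 6 other libraries, and the difference between the KO effects in the 2 tissues was -1.45 ± 0.58 (SE; limma adjusted p = 1).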

How the data were processed

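Libraries were made from 500 or more sorted cells with a low-input SMARTer kit and Nextera XT tagmentation, per the labels' protocols. The values used are TPM, which the authors deposited in 1 table of all 8 libraries, with the same total in each column. Per the submitters' processing notes the genome build was mm9. The labels and headers used here do not name an aligner, counter or annotation. TPM divides by gene length and is relative to each library, so a high share of hemoglobin or mitochondrial mRNA lowers every other gene. It keeps no read depth, so counting error could not be given. Amplification from few cells adds noise to low values.

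Genes that reached 1 TPM in 2 or more libraries were fitted with limma 3.58.1 (R 4.3.3) with a variance trend on log2(TPM + 1), as 4 groups of 2 libraries with 4 residual degrees of freedom, with Benjamini-Hochberg adjustment over the 13376 genes. The fit was tested on simulated data, where many of the changed genes did not pass the threshold. The members and lists were chosen with earlier results of these data known. Deviations from the group means of libraries with the same experiment number correlated at 0.128 to 0.382 in the 6 pairs of groups. The numbers thus pair the libraries. All p-values printed are from the fit without this pairing unless a replicate block is named. Alternatives were a replicate block, pseudocounts of 0.1 and 5, no filter or one of 5 TPM, quantile normalization, rescaling without mitochondrial and hemoglobin genes, leaving out libraries, and fitting the 4 libraries compared alone.

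Named members are the 13 mitochondrial ones, any past the threshold, the 2 nuclear ones of highest mean per complex, those with the 3 largest fold changes in each direction per contrast whose higher group averaged 5 TPM or more, the paired isoforms and those under the filter. Of these, values are printed where they carry a result. From the other lists the 3 of smallest p per contrast were named where the unadjusted p was under 0.05. Coding lengths are the longest in GENCODE M21 and promoters are RefSeq windows. No coordinates of mm9 were used. Python 3.11.15, pandas 2.3.3 and matplotlib 3.10.9 were used for sums and plots. Some single genes are not reported here by name.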

Additional observations from a re-analysis of the deposited data

How the results depend on the processing

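With the replicate block, 0 members were called in each of the 5 contrasts, as without it. For WT adipose over WT spleen, 9 members had an unadjusted p under 0.05 with the block, against 5 without it. Over all genes 2536 did with the block, against 1741 without it. The smallest adjusted p of a member there was 0.0717 with the block, against 0.26 without it, by limma. The other contrasts had 0 to 3 such members with the block and 0 to 2 without it. Leaving out 1 library at a time gave 0 to 1 members called for KO over WT adipose, KO adipose over KO spleen and the interaction, and 0 to 0 for the other contrasts. The call was Ndufa4l2 without KO adipose library 2, with limma adjusted p-values of 0.0131, 0.00795 and 0.0473, in fits where KO adipose is 1 library assumed to vary like the other groups. Its log2 fold change ranged from -0.62 to 4.84 for KO over WT adipose and for the interaction, and from 0 to 5.47 for KO adipose over KO spleen. The mitochondrial median for KO over WT adipose was 0.0586 after quantile normalization, 0.38 after rescaling and 0.12 to 0.47 with 1 library left out. For WT adipose over WT spleen, the nuclear median was -0.39 after quantile normalization and -0.36 after rescaling. The mitochondrial one was -0.51 and -1.06 in the same order. For KO adipose over KO spleen the mitochondrial median ranged from -0.59 to -0.19 and the nuclear one from -0.64 to -0.03 with 1 library left out. For KO over WT spleen the mitochondrial one ranged from -0.45 to -0.16 and the nuclear one from -0.10 to 0.47. The cause was not tested.

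Without the most abundant member, mt-Co3, the mitochondrial share was 8.10% in KO adipose and 6.61% in WT adipose, and without Cox6b1 the nuclear share was 2.64% in WT adipose and 3.03% in WT spleen. The ratio without mt-Co3 was 2.90 in KO adipose, 2.39 in WT adipose, 2.82 in KO spleen and 3.75 in WT spleen. Without mt-Atp8, mt-Nd4l and mt-Nd6, a choice made after seeing the data, the share was 9.85% in KO adipose and 8.10% in WT adipose, and the ratio 3.51 in KO adipose and 3.39 in KO spleen. These fall because members were removed. Compared with the main setting, 160 values of single genes kept their direction and side of the threshold, and 3 were counted as reversed. The values that changed side, and the counts that moved, were the Ndufa4l2 calls above, and 81 counts were unchanged. Of medians, 64 moved by less than 1 SD and 8 by more. A change of sign could count as less, as for the nuclear median of KO over WT adipose, -0.08 without KO adipose library 2. Of sums or ratios, 44 moved by less than 1 SD and 12 by more. Leaving out 1 of 2 libraries always moves a group mean by less than its SD, so the sums could not fail that check. With 2 libraries a group and no depth, only differences that are large beside the spread could pass.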
